A study of Mus musculus with 34 samples.

Results

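The response described here is that of the liver of LWT mice, the control line for a liver-specific Ppara knockout, to fenofibrate. It was followed in 9 of the 34 arrays of the study: 5 mice given fenofibrate and 4 given vehicle, chosen by their sample titles alone. The study set 4 lines of male C57Bl/6J mice side by side (wild-type WT, LWT, the liver knockout LKO and the whole-body knockout KO), each with or without the drug, and measured liver RNA with 1-colour Agilent mouse arrays. The study text counts 36 liver samples, while its own group sizes and the arrays used here add up to 34.

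All 9 LWT mice were 14 weeks old, ate Safe 04 chow freely, were kept under a 12 h light and 12 h dark cycle and were killed at ZT14 (Zeitgeber time, hours after lights on). Fenofibrate was gavaged daily for 10 days at 100 mg/kg/day. The vehicle mice received the carrier by the same route, gum arabic at 3% in water. LWT is described in the labels as liver WT, and the line is taken here to carry the floxed Ppara allele without its deletion. The sources used here do not name the Cre driver of the LKO line. Each array holds the RNA of 1 mouse, so the spread between arrays of a group is the spread between animals of 1 line and 1 sex, and what follows holds for that line, dose and hour.

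Fenofibrate is a prodrug whose acid binds PPARα (peroxisome proliferator-activated receptor alpha), a nuclear receptor that pairs with RXR and switches on genes of fatty acid handling. In hepatocytes its classical targets cover uptake and activation of fatty acids, their oxidation in peroxisomes, mitochondria and microsomes, ketone body formation, and lipid droplet coat proteins. In rodents its activation also enlarges the peroxisome compartment, and agonists lower the RNA of a number of secreted hepatocyte proteins.

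A level below is the log2 signal of a gene's brightest probe minus the 75th percentile of its own array, so a level of 0 is the 75th percentile and a difference of 1 is 2-fold. Levels are compared between mice for 1 probe and never between probes. A gene is called changed when its adjusted p in limma (Benjamini-Hochberg over all 15766 genes tested) is under 0.05. By that rule 2826 genes, or 17.9%, differed between treated and vehicle LWT liver. Of these, 1591 were higher with the drug (10.1% of genes tested) and 1235 lower (7.83%). Every count of a gene group below is to be read against those shares. The groups and their members were chosen with earlier results of these data known, so that comparison is not an independent test. Where calls of a group are given in 1 direction, limma called 0 of its members the other way. At an unadjusted p under 0.05, 1 member went the other way in each of peroxisomal beta-oxidation, coenzyme A turnover and thioesterases, lipid droplets and endoplasmic reticulum stress, and 0 in the other such groups of metabolism, secreted proteins, clock and antioxidant genes. Calls in each of the 9 fits that left out 1 LWT mouse numbered 1633, 971 higher and 662 lower. At least 2-fold changes ran both ways, in 291 called genes that rose (1.85%) and 247 that fell (1.57%), and in 190 and 192 when probes had to be well above background on all 34 arrays. Beyond that, 91 rose at least 4-fold (0.577%) and 24 fell (0.152%), and 38 rose at least 8-fold (0.241%) against 3 that fell (0.019%). Among the 14232 genes well above background on all 9 LWT arrays, 58 rose and 13 fell at least 4-fold, and 20 rose and 1 fell at least 8-fold. The treated mice all lay above the vehicle mice in 10.8% of genes tested and all below them in 7.89%. A fit of the 9 LWT arrays alone called 9.25% of genes higher and 6.91% lower. The median change over all genes was 0.004 on the log2 scale.

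The LWT arrays showed between 50.6% and 58.4% of probes well above background, and arrays of 1 LWT group correlated at 0.979 or higher over probes. The 9 arrays lay on 4 slides, of which slide 2 and slide 3 held both treatments, slide 4 only vehicle mice and slide 5 only treated mice. Within slide 2 the sign of the difference was the same as over all mice for 99.4% of the 2826 called genes (80.5% of all genes tested), and within slide 3 for 99.5% (80.1%). The same arrays entered the calls, so these shares are high in part by construction. Ppara itself lay at 6.70, 7.06, 7.25 and 7.09 in the vehicle mice and at 6.997, 7.05, 6.97, 7.11 and 6.94 in the treated mice. The groups overlapped, and the difference of −0.01 ± 0.15 (SE) did not pass the test (adjusted p = 0.965). In LKO liver the same probe had a median of 6.12 with vehicle and 6.09 with the drug, below the lowest LWT mouse. The RNA is that of whole liver, in which fewer cells of a type and less RNA per cell cannot be told apart.

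**Figure D1:**
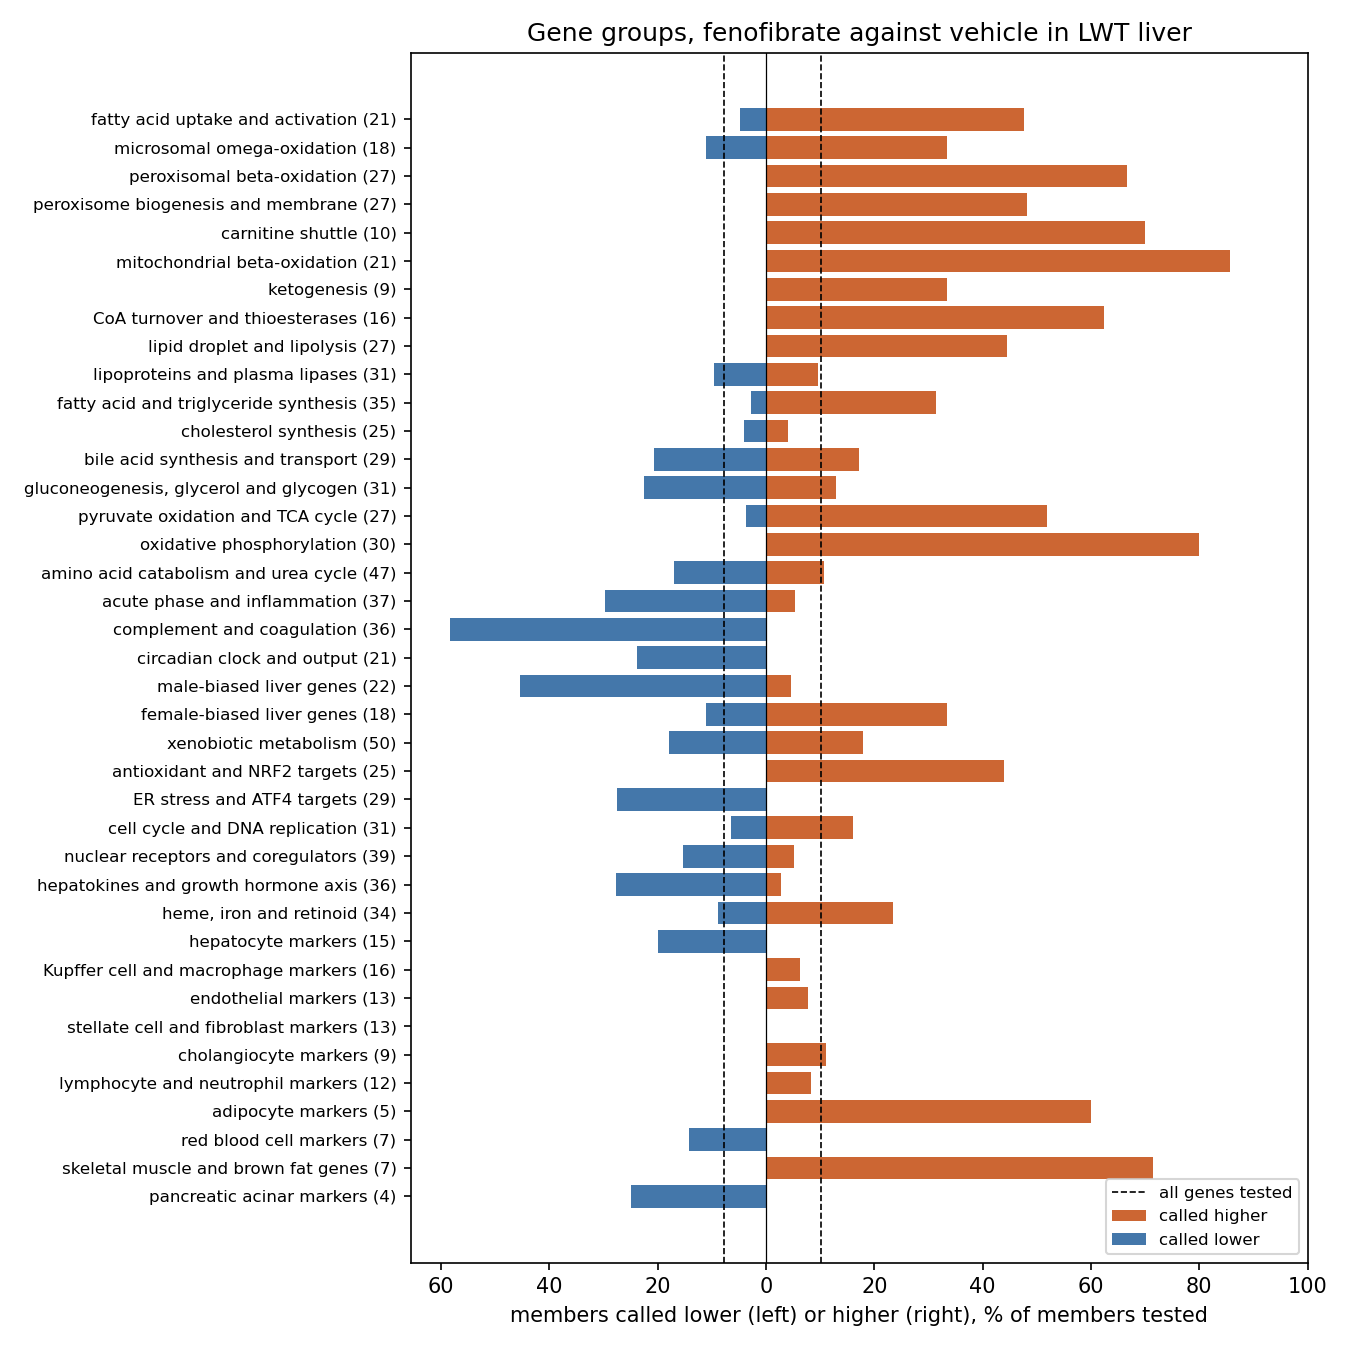
Share of the tested members of each gene group that were called higher (orange, right) or lower (blue, left) with fenofibrate in LWT liver, in percent, with the number tested in brackets and dashed lines at the shares of all 15766 genes (10.1% higher, 7.83% lower). Mitochondrial beta-oxidation and oxidative phosphorylation lie farthest to the right among groups of over 10 genes, and complement and coagulation farthest to the left.

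Genes for entry and activation of fatty acids came up at several steps. Of 21 genes of fatty acid uptake and activation, 10 rose and 1 fell, with a median change of 0.52. Cd36, the membrane translocase for long-chain fatty acids, lay at −0.16, 0.03, 0.43 and −0.16 with vehicle and at 4.03, 4.02, 3.76, 4.18 and 3.54 with the drug. Every treated mouse stood far above every vehicle mouse, a rise of 14.6-fold (adjusted p = 1.15e-15). Slc27a1 encodes a fatty acid transport protein best known from muscle and fat. It went from 2.17, 2.39, 2.29 and 2.08 to 4.19, 3.85, 4.18, 4.34 and 3.62, again without overlap (3.50-fold, adjusted p = 2.57e-08). The intestinal-type binding protein Fabp2 rose by 1.13 ± 0.15 on the log2 scale (SE, adjusted p = 2.33e-06). Fabp1, the binding protein that hepatocytes make in bulk, stayed between 9.83 and 10.31 with vehicle and between 10.04 and 10.39 with the drug, a difference of 0.03 ± 0.12 (adjusted p = 0.892). Slc27a4, another transport protein of the family, was the member that fell, by 0.45 on the log2 scale (adjusted p = 0.0113). Acsl1, the main long-chain acyl-CoA synthetase of liver, was 0.54 ± 0.20 higher without passing the test (adjusted p = 0.0663), while its second probe, at 0.86, did (adjusted p = 0.022).

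Fabp4, the adipocyte-type binding protein, rose by 1.87 (adjusted p = 0.00145) from 2.10, 1.88, 1.72 and 1.80 to 2.95, 2.82, 6.02, 3.33 and 3.61. Treated mouse 3 stood well above the others, and in a fit of the 9 LWT arrays alone the call was lost (adjusted p = 0.058). The heart-type Fabp3 behaved alike, with treated mouse 3 at −0.05 and the other treated mice between −2.58 and −1.99. Its rise of 1.34 did not pass without that mouse (adjusted p = 0.0561).

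Omega-oxidation, in which microsomal cytochromes hydroxylate the far end of the fatty acid and a dehydrogenase completes the acid, counted 6 higher and 2 lower of 18 genes. Cyp4f18 rose 3.87-fold, from 0.44, 0.13, 0.46 and 0.05 to 1.94, 2.20, 2.30, 2.31 and 2.36 (adjusted p = 3.15e-14). Aldh3a2, the fatty aldehyde dehydrogenase, rose 4.46-fold, from 2.66, 2.45, 2.83 and 3.01 to 5.16, 4.67, 4.86, 5.07 and 4.73 (adjusted p = 4.23e-12). For both genes the groups were far apart and tight. The family did not move as one, since Cyp4f14 fell from 6.56, 6.48, 6.56 and 6.31 to 5.49, 5.48, 5.26, 5.62 and 5.33 (2.05-fold lower, adjusted p = 1.08e-07). Cyp4a12a and Cyp4a12b, the male-predominant members of the Cyp4a cluster, rose 2.79-fold and 2.62-fold (adjusted p = 0.000128 and 0.000239), and in each the 5 treated mice lay above the 4 vehicle mice.

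The classical fibrate markers Cyp4a10 and Cyp4a14 need their probes told apart. These fatty acid omega-hydroxylases belong to a family of related genes in 1 cluster on chromosome 4, and signal between close copies can be shared. The brightest Cyp4a10 probe (mm9, chromosome 4, 115206200 to 115206259) lay at 8.53, 9.07, 9.02 and 9.46 with vehicle and at 10.00, 9.87, 10.01, 10.31 and 9.97 with the drug. The groups did not overlap, yet the difference of 1.02 ± 0.63 was not called (adjusted p = 0.297). Cyp4a14, with 1 probe, lay at 7.33, 7.82, 8.31 and 9.20 against 9.85, 9.93, 10.05, 10.37 and 10.07, and its 3.70-fold difference was not called either (adjusted p = 0.190). The spread behind those tests is pooled over all 34 arrays. When only the 9 LWT arrays were fitted, both genes were called (adjusted p = 0.0046 and 0.0047), as were Cyp4a31 (adjusted p = 0.0045) and Cyp4a32 (adjusted p = 0.0003).

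Of the dimmer probes of Cyp4a10 and Cyp4a31, 3 were called in the fit over all arrays, and their sequences are shown because they let a reader see how close the copies are. The 60 bases are as given in the array files, 5′ to 3′, and capitals mark the 6 positions at which the first pair differ.
Cyp4a10, chr4:115198463-115198522, plus strand: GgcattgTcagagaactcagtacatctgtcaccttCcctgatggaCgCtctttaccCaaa
Cyp4a31, chr4:115243923-115243982, plus strand: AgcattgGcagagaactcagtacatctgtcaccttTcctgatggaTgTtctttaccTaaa
Cyp4a31, chr4:115242872-115242931, plus strand: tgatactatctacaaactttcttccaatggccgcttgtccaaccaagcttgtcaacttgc
The Cyp4a10 probe of the pair went from 6.00, 6.79, 6.73 and 7.26 to 8.98, 8.51, 8.72, 9.14 and 8.47, a difference of 2.07 ± 0.53 (adjusted p over named probes = 0.00716). Its Cyp4a31 counterpart went from 5.34, 6.03, 5.88 and 6.50 to 8.28, 7.83, 8.06, 8.37 and 7.75, a difference of 2.12 ± 0.38 (adjusted p = 0.000161). The other Cyp4a31 probe differed by 2.30 ± 0.57 (adjusted p = 0.00503). All 3 gave a larger difference than the brightest probe of the same gene, which was 1.02 for Cyp4a10 and 0.98 for Cyp4a31. The pair differ at 6 of 60 bases, and whether each probe also takes up RNA of the other gene was not tested.

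**Figure D2:**
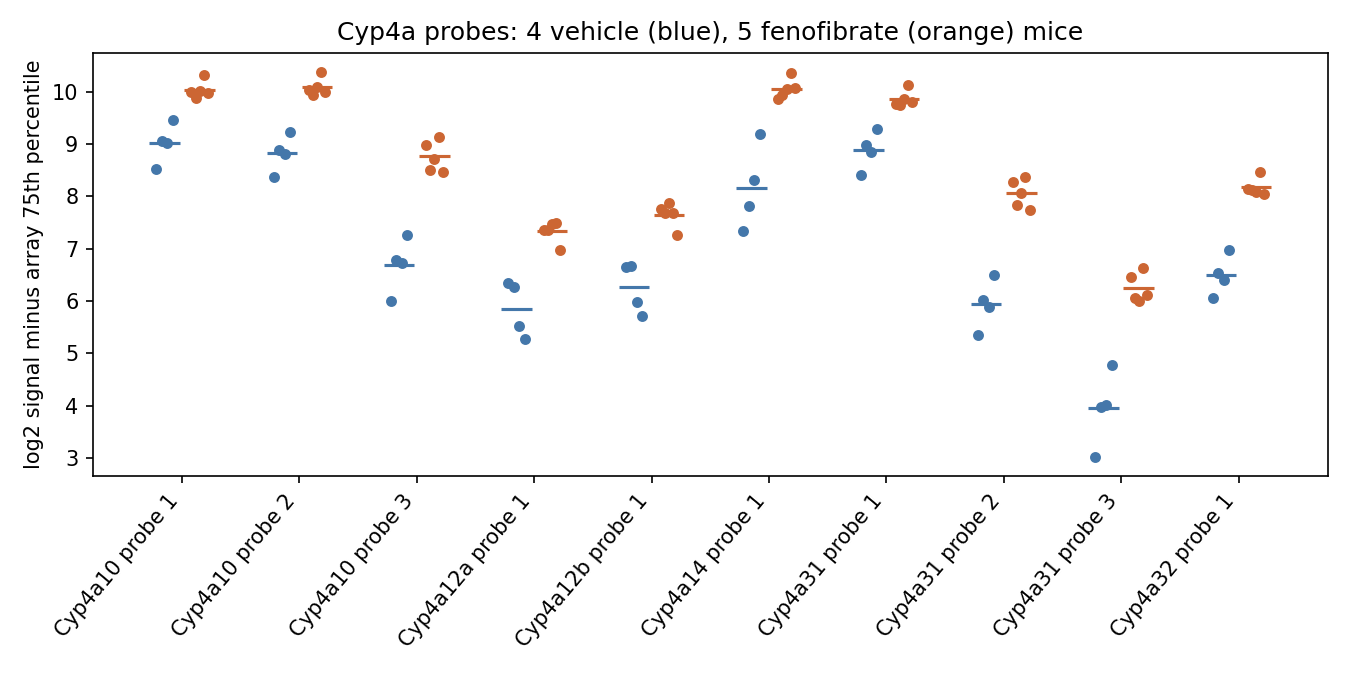
Level of every detected Cyp4a probe in each LWT mouse (log2 signal minus the array's 75th percentile), vehicle in blue and fenofibrate in orange, with bars at group means and probes numbered by brightness within a gene. No probe has a treated mouse below a vehicle mouse, and the bright probes of Cyp4a10 and Cyp4a31 show a smaller step than the dim ones.

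Inside peroxisomes, 18 of 27 genes of beta-oxidation rose (median 0.59), and 15 of the 18 were called in each fit that left out 1 LWT mouse. Ehhadh, the bifunctional enzyme of the pathway, rose 8.29-fold (adjusted p = 6.71e-09). Ech1, which repositions double bonds, went from 6.05, 6.13, 6.39 and 6.50 to 7.70, 7.34, 7.31, 7.57 and 7.27 (2.25-fold, adjusted p = 4.21e-09). Acaa1b, a thiolase that ends the cycle, rose 2.90-fold (adjusted p = 2.35e-06). Phyh, Scp2 and Acox3, which act on branched chains, differed by 0.01, 0.05 and −0.07 and were not called.

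The acyl-CoA thioesterases, which release free fatty acid from coenzyme A, sit side by side on chromosome 12 and rose together. Acot3, of peroxisomes, went from 2.40, 1.68, 2.38 and 4.27 to 6.74, 6.36, 6.04, 6.47 and 6.21 (12.8-fold, adjusted p = 2.09e-06). Acot6 went, by its brightest probe, from −2.27, −2.13, −2.17 and −2.65 to 0.52, 0.77, 0.93, 0.38 and 0.29 (7.38-fold, adjusted p = 1.3e-09, 1.41 on the log2 scale by its second probe), and Acot4 rose 3.82-fold (adjusted p = 5.7e-07). The mitochondrial Acot2 rose 26.4-fold (adjusted p = 9.14e-11) and the cytosolic Acot1 4.42-fold (adjusted p = 0.00232). Vehicle mouse 4 was the highest of its group for Acot1, Acot2, Acot3, Acot4 and Acot5, and still lay below every treated mouse. These paralogs are close enough that cross-hybridisation between them was not tested. A probe each for Acot3 and Acot5 is shown, as given in the array files, because they read neighbouring copies of the cluster.
Acot3, chr12:85399468-85399527, plus strand: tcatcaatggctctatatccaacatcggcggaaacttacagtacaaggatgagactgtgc
Acot5, chr12:85416634-85416693, plus strand: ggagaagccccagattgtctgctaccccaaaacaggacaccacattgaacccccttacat
This second Acot3 probe differed by 3.29 ± 0.53 and the Acot5 probe by 3.32 ± 0.63 (adjusted p over named probes = 3.84e-05 and 0.000337). A second Acot5 probe, dimmer on average, differed by 4.87 ± 0.35 (adjusted p over named probes = 4.17e-11), so that the size of the Acot5 rise depends on the probe.

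Genes of peroxisome assembly rose alongside those of peroxisomal beta-oxidation: 13 of 27 genes of biogenesis and membrane were higher (median 0.34). Pex11a, the peroxin that drives elongation and division, went from 7.20, 7.77, 7.99 and 8.17 to 9.08, 8.96, 8.97, 9.33 and 8.92 (2.41-fold, adjusted p = 1.47e-05). Pex3, which inserts membrane proteins, went from 3.41, 3.27, 3.29 and 3.04 to 4.20, 4.05, 4.17, 3.97 and 3.85, without overlap (1.74-fold, adjusted p = 1.42e-07). The very-long-chain acyl-CoA transporter Abcd2 was not well above background in any vehicle mouse and was in all 5 treated mice, at least 3.78-fold higher (adjusted p = 6.82e-07). That bound sets the treated mean against the weakest signal that counts as well above background on each vehicle array. Pex11g, a paralog of Pex11a, differed by 0.28 and was not called. Cat, peroxisomal catalase, was called at 1.40-fold (adjusted p = 0.0318) but lost that call in 8 of the 9 fits without a mouse, all but the one without treated mouse 5. By its second probe Cat differed by 0.355 and was not called (adjusted p over named probes = 0.134).

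**Figure D3:**
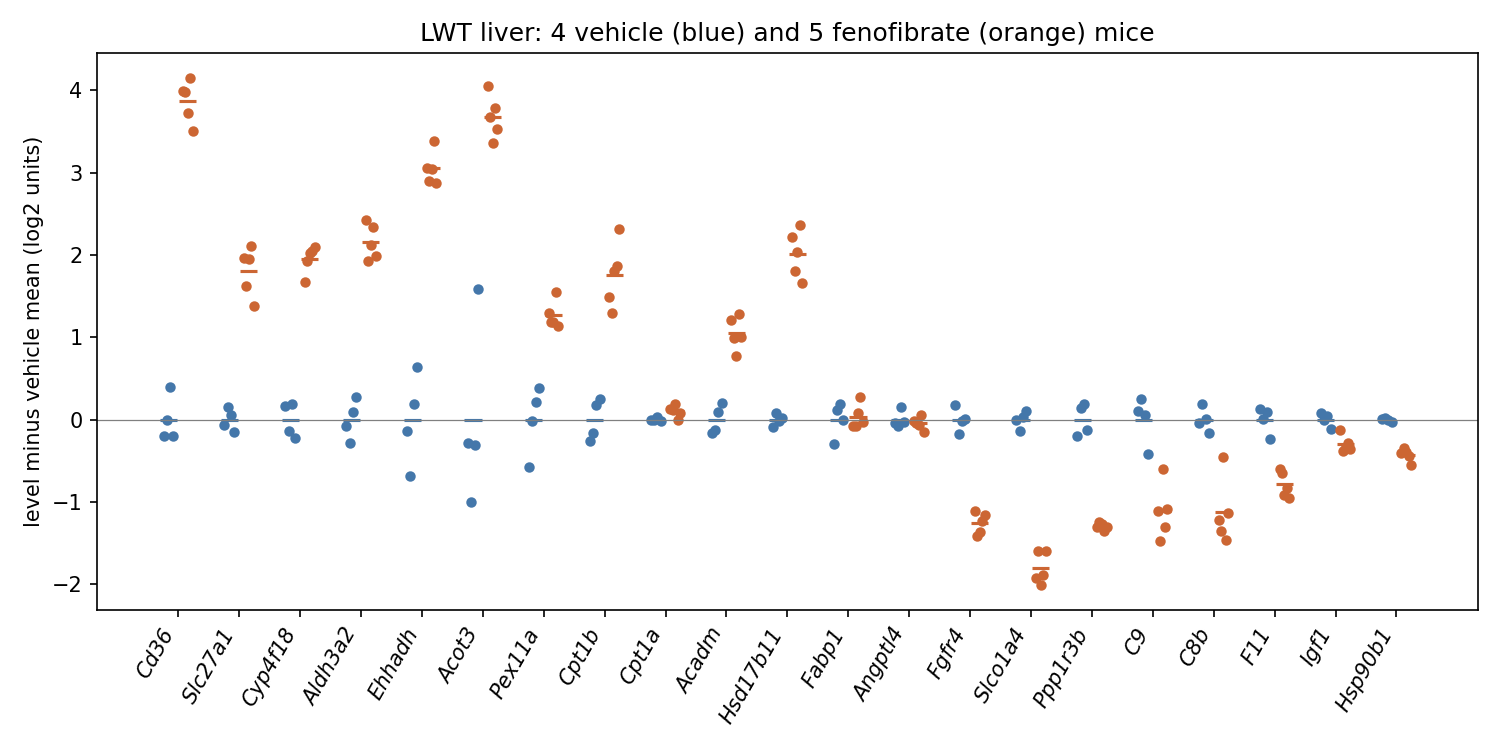
Level of 21 genes in each LWT mouse minus the vehicle mean of that gene (log2 units), vehicle in blue, fenofibrate in orange, bars at group means. Cpt1a, Fabp1 and Angptl4 overlap between groups, while the 5 treated mice lie on 1 side of the 4 vehicle mice for the other genes.

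The RNA of genes for passage into mitochondria and oxidation there rose broadly. Of 10 carnitine shuttle genes 7 were higher, and of 21 genes of mitochondrial beta-oxidation 18 were higher, all 18 in every fit that left out a mouse (median 0.55). The carnitine palmitoyltransferases split. Cpt1b, the muscle form, went from −1.05, −0.95, −0.61 and −0.54 to 0.70, 0.51, 1.02, 1.07 and 1.53 (3.38-fold, adjusted p = 7.01e-08, 2.06 by its second probe). Cpt1a, the liver form, lay at 7.28, 7.27, 7.31 and 7.26 against 7.41, 7.39, 7.46, 7.28 and 7.36, a difference of 0.10 ± 0.08 that was not called (adjusted p = 0.405). The carnitine importers Slc22a5 and Slc22a21 rose 2.41-fold and 2.31-fold (adjusted p = 0.000178 and 3.5e-05). Acadm, the medium-chain dehydrogenase, went from 6.99, 7.03, 7.25 and 7.35 to 8.37, 8.15, 7.92, 8.43 and 8.15 (2.07-fold, adjusted p = 1.32e-07). Hadha and Hadhb, both subunits of the trifunctional protein, rose 1.66-fold and 1.81-fold (adjusted p = 4.67e-05 and 7.01e-08). The 3 members not called, Acaa2, Echs1 and Acad10, differed by 0.22, 0.28 and −0.19.

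Downstream of beta-oxidation the steps were smaller and many. In the tricarboxylic acid cycle and its pyruvate entry, 14 of 27 genes rose and 1 fell. Suclg1, a subunit of succinyl-CoA ligase, went from 6.57, 6.42, 6.53 and 6.46 to between 6.94 and 7.19 in the 5 treated mice, without overlap (1.44-fold, adjusted p = 1e-05), and Idh2, the mitochondrial isocitrate dehydrogenase that makes NADPH, rose 1.46-fold (adjusted p = 4.54e-05). Pdk4, the kinase that shuts pyruvate dehydrogenase, rose 13.4-fold (adjusted p = 9.33e-07). Pdp1, the phosphatase that reopens it, was the member that fell, by 0.70 (adjusted p = 0.00295), though its other 2 probes, at −0.31 and −0.12, were not called. Of 30 oxidative phosphorylation genes 24 rose. Leaving aside the uncoupling proteins, the called members differed by between 0.21 and 0.47. Ndufa10, of complex I, went from 4.85, 4.78, 4.89 and 4.78 to 5.54, 5.28, 5.31, 5.30 and 5.07 (adjusted p = 0.000307), and Uqcrc2, of complex III, from 6.80, 6.74, 6.84 and 6.75 to 7.28, 7.15, 7.09, 7.14 and 7.04 (adjusted p = 0.000247). Steps of this size are narrow against the spread: 15 of the 24 were called in every fit that left out a mouse, and 15 in the fit of the 9 LWT arrays alone. Without treated mouse 1, 15 were called.

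Genes of the uncoupling protein family, carriers of the mitochondrial inner membrane, changed far more. Ucp2 went from 0.65, 0.95, 0.36 and 0.67 to 2.49, 2.10, 3.27, 2.47 and 1.65 (3.34-fold, adjusted p = 2.33e-06). Its neighbour Ucp3, mostly a muscle gene, went from 0.22, 0.46, 0.06 and 0.33 to 2.28, 1.86, 3.17, 2.08 and 1.20 (3.61-fold, adjusted p = 3.93e-06). The treated mice took the same order for both genes, with mouse 3 highest and mouse 5 lowest.

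Of 9 genes of ketone body formation 3 were called, each higher. Acat1, a mitochondrial acetoacetyl-CoA thiolase, went from 4.94, 4.85, 5.01 and 5.27 to 5.95, 5.73, 5.56, 5.77 and 5.49 (1.61-fold, adjusted p = 3.1e-05). The groups of Fgf21, a hormone that hepatocytes release, overlapped (0.49 ± 0.68, adjusted p = 0.683).

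A list of coenzyme A turnover genes and thioesterases, which takes in Acot1 and Acot5 described above, had 10 of 16 members higher. Vnn1, a pantetheinase that recycles the vitamin part of coenzyme A, went from 1.95, 2.62, 2.06 and 2.72 to 5.31, 5.03, 5.01, 5.38 and 4.61 (6.63-fold, adjusted p = 3.8e-06). Coasy, which catalyses the last steps of its synthesis, rose by 0.51 (adjusted p = 4.78e-05).

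On the storage side, 12 of 27 lipid droplet and lipolysis genes rose (median 0.36), of which 7 were called in each fit that left out a mouse. Hsd17b11, a droplet-associated dehydrogenase, went from 6.43, 6.60, 6.50 and 6.54 to 8.73, 8.33, 8.55, 8.88 and 8.18 (4.04-fold, adjusted p = 6.08e-11). Plin2, the main droplet coat of hepatocytes, rose 2.18-fold (adjusted p = 0.0018), and Hilpda, an inhibitor of the lipase encoded by Pnpla2, rose 2.38-fold (adjusted p = 0.00224). Pnpla2 itself rose 1.77-fold (adjusted p = 0.00448). Cidec, which fuses droplets, went from 2.75, 3.32, 4.18 and 4.37 to 4.92, 5.51, 6.24, 6.04 and 6.02 (4.26-fold, adjusted p = 0.0113), and its adjusted p rose to 0.05 without vehicle mouse 1. A second Cidec probe gave 2.05 ± 0.44 (adjusted p over named probes = 0.00139). Its relative Cidea was called at 1.83 ± 0.58 (adjusted p = 0.027) with overlapping groups, and lost the call in 4 of the 9 fits without a mouse, up to 0.131 without vehicle mouse 4.

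Among genes of plasma lipid handling, a lipase, a transfer protein and a receptor rose. Lpl, lipoprotein lipase, went from −0.09, 1.08, −1.41 and −0.84 to 3.06, 2.73, 4.36, 3.11 and 2.56 (11.1-fold, adjusted p = 1.63e-08). Pltp, the phospholipid transfer protein, went from 2.76, 1.74, 2.19 and 2.09 to 4.90, 5.47, 4.66, 4.55 and 4.23 (5.93-fold, adjusted p = 7.67e-09), and Vldlr, a receptor for triglyceride-rich particles, rose 20.2-fold (adjusted p = 6.71e-09). Among apolipoproteins, Apom fell from 7.97, 7.97, 7.94 and 7.91 to 7.56, 7.24, 7.34, 7.38 and 7.33 (1.49-fold lower, adjusted p = 1.62e-05). Apoa4 fell by 2.04 ± 0.49 (adjusted p = 0.00364), but treated mouse 5, at 5.38, lay within the vehicle range of 4.77 to 6.28, and the call was lost when the 9 LWT arrays were fitted alone (adjusted p = 0.070). Angptl4, an inhibitor of that lipase, differed by −0.04 ± 0.09 (adjusted p = 0.798). The list as a whole had 3 of 31 members higher and 3 lower, near the background in both directions.

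Genes of fatty acid and triglyceride synthesis moved mostly upward. Of 35 genes 11 rose and 1 fell, with a median change of 0.28. Mogat1, a monoacylglycerol acyltransferase, rose 23.2-fold (adjusted p = 8.63e-14), and Acacb, the acetyl-CoA carboxylase whose product restrains Cpt1, rose 1.96-fold (adjusted p = 6.34e-05). Lpin1, a phosphatidate phosphatase and coactivator, fell from 6.08, 5.95, 6.11 and 5.56 to 4.92, 4.09, 4.33, 4.37 and 4.39 (2.84-fold lower, adjusted p = 5.1e-06). Fasn and Acly, central enzymes of new fatty acid formation, differed by 0.56 and −0.72 and were not called. In cholesterol synthesis 1 of 25 genes rose, the cytosolic synthase Hmgcs1 (1.54 ± 0.34, adjusted p = 0.00138), and 1 fell, the sterol carrier Stard4 (−0.85, adjusted p = 0.0131 and 0.0552 without vehicle mouse 1). In the fit of the 9 LWT arrays alone, 6 of the cholesterol genes were called higher.

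The RNA of secreted complement and clotting factors fell together. Of 36 genes 21 fell (background 7.83%), with a median change of −0.32, and 17 of the 21 were called in every fit that left out a mouse. Terminal complement was among them. C9, which forms the pore, fell from 3.40, 3.55, 3.35 and 2.88 to 2.18, 1.82, 2.69, 1.99 and 2.21 (2.16-fold lower, adjusted p = 8.99e-06). C8b and C8a, subunits of the component before it, fell 2.18-fold and 1.93-fold (adjusted p = 2.72e-05 and 3.68e-06), and C6 2.01-fold (adjusted p = 6.15e-05). Treated mouse 3 was the least lowered for C9, C8b, C8a and C6, and still lay below every vehicle mouse. C1s1, a protease of the classical pathway, fell by 0.70 (adjusted p = 5.37e-05). Among clotting factors, F11 fell from 4.60, 4.48, 4.56 and 4.23 to 3.88, 3.82, 3.56, 3.65 and 3.52 (adjusted p = 0.000373), F5 by 0.50 (adjusted p = 2.59e-06) and F2, prothrombin, by 0.27 (adjusted p = 0.00177). C3, the hub of the complement cascade, differed by 0.00 ± 0.10 (adjusted p = 0.996), and Alb, albumin, by −0.13 ± 0.09 (adjusted p = 0.367).

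**Figure D4:**
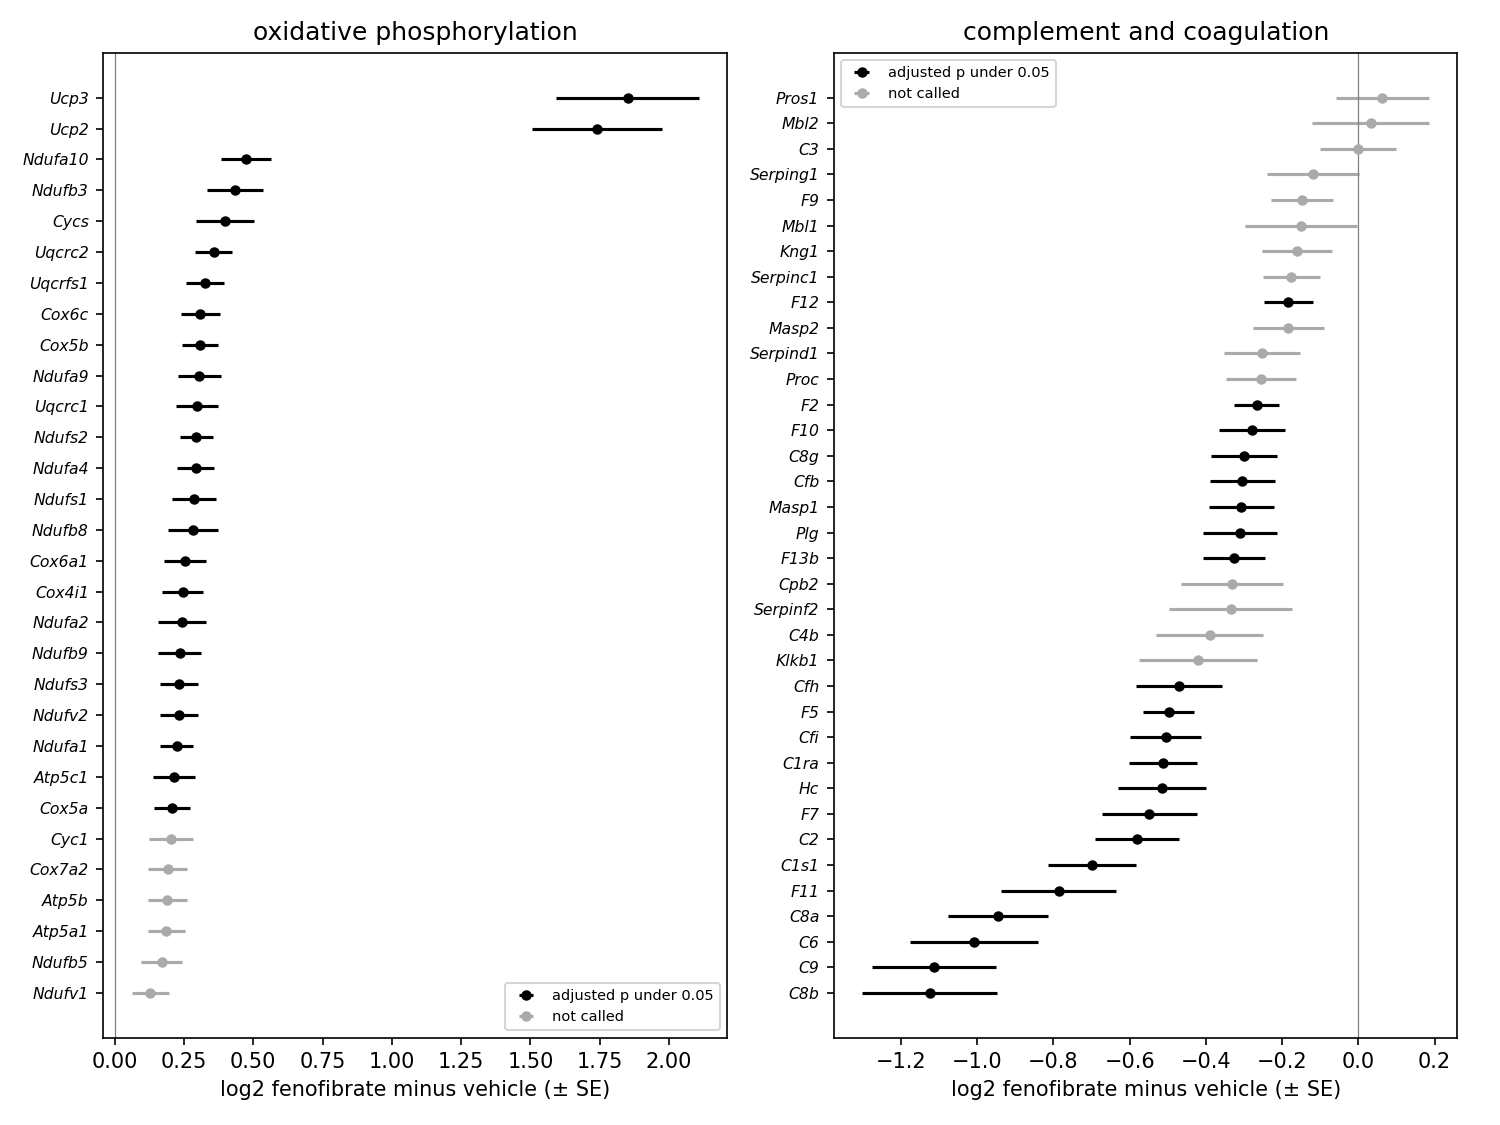
Log2 change with fenofibrate in LWT liver (fitted difference ± SE, 5 against 4 mice) for the 30 oxidative phosphorylation genes and the 36 complement and coagulation genes tested, black where the adjusted p is under 0.05 and grey otherwise. The first group lies above 0 throughout, with Ucp2 and Ucp3 far to the right, and the second below 0 for most members, down to about −1.1 for C9 and C8b.

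Acute phase genes were lower too, with 11 of 37 called lower and 2 higher, of which 6 and 1 were called in every fit without a mouse. Saa4, the constitutive serum amyloid, fell from 5.90, 6.46, 6.07 and 5.69 to 5.37, 4.96, 5.06, 4.92 and 5.04 (1.95-fold lower, adjusted p = 0.00114), and Itih4 fell 1.60-fold (adjusted p = 0.0059). The inducible Saa1 ranged from 5.14 to 7.66 with vehicle and from 4.10 to 8.67 with the drug, treated mouse 3 being the highest of all 9, and no difference was called (−0.89 ± 0.82, adjusted p = 0.513). Haptoglobin, Hp, differed by −0.02 ± 0.13 (adjusted p = 0.928). The metallothioneins Mt1 and Mt2, metal-binding proteins that respond to stress, were called lower by 1.02 and 1.38 (adjusted p = 0.0399 and 0.0393). Both were uneven, with treated mice 3 and 5 near the vehicle mice, and without treated mouse 2 the adjusted p rose to 0.141 and 0.136. A second, dimmer Mt1 probe differed by −1.98 ± 0.34 (adjusted p over named probes = 0.000108). Il1rn, the interleukin-1 receptor antagonist, went the other way, from −3.84, −2.77, −3.04 and −3.17 to −0.28, −0.21, −0.24, −0.31 and 0.13 (8.12-fold, adjusted p = 1.87e-09).

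Of 29 genes of endoplasmic reticulum stress and targets of ATF4, 8 were lower, 5 of the 8 in every fit without a mouse. Hsp90b1, a chaperone, fell from 7.02, 7.03, 7.004 and 6.98 to 6.60, 6.66, 6.62, 6.57 and 6.46 (1.34-fold lower, adjusted p = 0.00135). Pdia6, a disulfide isomerase, fell 1.42-fold (adjusted p = 0.000458), and Atf6, a sensor of unfolded protein, 1.38-fold (adjusted p = 0.000139). Hspa5, the main chaperone of the compartment, was called at −0.41 (adjusted p = 0.043) but lost the call in 6 of the 9 fits, up to 0.197 without vehicle mouse 1. The targets of ATF4, such as Asns, Trib3 and Atf3, differed by 0.62, 0.85 and 0.25 and were not called.

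Growth hormone signalling sets much of the sexual dimorphism of mouse liver, and genes of both kinds moved. In the list of hepatokines and the growth hormone axis 10 of 36 were lower and 1 higher, 5 and 0 in every fit without a mouse. Ghr, the receptor, fell from 6.26, 6.49, 6.35 and 6.19 to 6.08, 5.98, 5.66, 6.05 and 5.56 (1.37-fold lower, adjusted p = 0.00561). By its second probe Ghr differed by −0.41 and was not called (adjusted p over named probes = 0.0513). Stat5b, which carries the signal of the receptor, fell 1.28-fold (adjusted p = 0.00905). Igf1, its main output, fell 1.23-fold (adjusted p = 0.0191), with an adjusted p of 0.0565 without vehicle mouse 1. Dimmer Igf1 probes were called at −0.32 and −0.45 (adjusted p over named probes = 0.0179 and 0.000689). Those at −0.34 and −0.48 were not called (adjusted p over named probes = 0.249 and 0.0584). The feedback gene Cish was called at −1.71 ± 0.59 (adjusted p = 0.0435) with overlapping groups, and lost the call in 7 of the 9 fits, up to 0.154 without vehicle mouse 4.

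Of 22 male-biased liver genes 10 fell and 1 rose, all of them in every fit without a mouse. Serpina12 was well above background in all 4 vehicle mice and in 0 of the 5 treated mice, at least 3.72-fold lower (adjusted p = 4.66e-07). Ugt2b1, a glucuronosyltransferase, fell 2.07-fold (adjusted p = 0.000404). Hsd3b5, a steroid dehydrogenase, fell from 5.41, 5.33, 4.34 and 3.85 to 3.44, 3.31, 3.32, 2.58 and 0.24 (4.46-fold lower, adjusted p = 0.00481, and 0.056 in the fit of the 9 LWT arrays alone). Cyp4a12a was the male-biased gene that rose. Moxd1, well above background in all 4 vehicle mice and in 2 of 5 treated mice, differed by −5.45 ± 1.03 (adjusted p = 0.000312), a size that rests in part on signals at background, and vehicle mouse 4, at −3.37, stood with the treated mice at −5.12 to −0.62 and not with the other vehicle mice at 3.47 to 3.59. Vehicle mouse 4 had the lowest mean of the list in its group, −0.55 relative to the vehicle mean, and treated mouse 5 the lowest of all, at −1.52. Treated mouse 3, at −0.49, lay above vehicle mouse 4, so the list means of the groups overlapped.

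Of 27 female-biased genes listed, 23 were on the array and 9 of the 27 were not tested. Among the 18 tested, 6 were higher and 2 lower, of which 3 and 0 were called in every fit without a mouse. The detection filter asked for signal in 1 or more groups, so a gene at background with vehicle could pass it through treated mice. With probes well above background on all arrays of the study, 2 of 12 were higher and 1 lower. The median change was then −0.12, against 0.04 for the 18, so the count of rises depends on the filter. Slc22a27, an organic anion carrier, was not well above background in any vehicle mouse and was in 4 of 5 treated mice, at least 1.74-fold higher (adjusted p = 8.15e-09). Abcd2 and Acot3, named above, belong to this list as well.

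Of 50 genes of drug metabolism 9 were higher and 9 lower, 3 of each in every fit without a mouse. Cyp2c70, which makes muricholic acid in mice, fell from 8.15, 7.71, 7.64 and 7.14 to 6.09, 6.31, 7.04, 5.85 and 5.53 (2.82-fold lower, adjusted p = 0.000196). Gstp1, a glutathione transferase higher in males, fell 2.21-fold (adjusted p = 7.78e-07). Cyp2b10, the classical target of the receptor CAR, was called 5.71-fold higher (adjusted p = 0.0243), with treated mice between 4.37 and 6.36 and vehicle mice between 2.22 and 3.08. Its groups did not overlap, yet without treated mouse 2 the adjusted p was 0.0691. In LKO liver its difference was 3.19, and the LWT response was not distinguishable from it (−0.68 ± 1.11, adjusted p = 0.81).

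Among bile acid genes, transporters moved both ways. Of 29 genes 5 rose and 6 fell. The efflux pumps Abcc4, Abcc3 and Abcg2 rose 2.67-fold, 1.83-fold and 1.70-fold (adjusted p = 6.05e-08, 3.63e-06 and 2.27e-06). The uptake carriers Slco1a4 and Slco1a1 fell 3.49-fold and 2.16-fold (adjusted p = 7.61e-07 and 1.55e-05), Slco1a4 from 2.43, 2.30, 2.48 and 2.55 to 0.52, 0.84, 0.43, 0.55 and 0.84. Fgfr4, the receptor through which intestinal FGF15 restrains bile acid synthesis, fell from 4.00, 3.65, 3.81 and 3.83 to 2.71, 2.42, 2.46, 2.60 and 2.67 (2.38-fold lower, adjusted p = 1.87e-09). Cyp7a1, the rate-limiting enzyme, ranged from 1.64 to 3.74 with vehicle and from 0.22 to 2.90 with the drug (difference −0.97 ± 0.75, adjusted p = 0.417).

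In carbohydrate metabolism genes of glycerol entry and glycogen targeting moved, while the gluconeogenic genes Pck1 and G6pc, at −0.23 and −0.06, were not called. Ppp1r3b, which brings a phosphatase to glycogen, fell from 7.79, 8.12, 8.17 and 7.86 to 6.69, 6.74, 6.72, 6.63 and 6.69 (2.45-fold lower, adjusted p = 7.2e-08). Aqp3, a glycerol channel, was well above background in 1 of 4 vehicle mice and in all 5 treated mice, and rose by 3.82 ± 0.47 (adjusted p = 6.65e-07). Gpd2, the mitochondrial glycerol phosphate dehydrogenase, rose 1.83-fold (adjusted p = 1.17e-06). Fbp2, the muscle fructose bisphosphatase, passed from below background in every vehicle mouse to above it in every treated mouse, at least 4.52-fold higher (adjusted p = 3.53e-05). Pklr, liver pyruvate kinase, fell 2.31-fold (adjusted p = 0.0105). In all, 4 of 31 members were higher and 7 lower.

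Other lists moved as well. Retsat, which saturates retinol, went from 6.77, 7.07, 7.15 and 7.67 to 8.93, 8.71, 8.64, 9.09 and 8.57 (3.08-fold, adjusted p = 1.93e-06). Rdh16, a retinol dehydrogenase, rose 2.53-fold (adjusted p = 0.00014), within a list of heme, iron and retinoid genes with 8 of 34 higher and 3 lower. Among 21 clock genes 5 fell, the deubiquitinase Usp2 by 0.94 (adjusted p = 3.48e-05) and the repressor Nfil3 by 0.95 (adjusted p = 0.000899), and the single hour sampled cannot tell a level from a shift in time. In amino acid breakdown 5 of 47 rose and 8 fell, with Prodh, proline dehydrogenase, lower (−0.59, adjusted p = 0.000237). Of 25 antioxidant genes 11 rose, 6 in every fit without a mouse, among them Gpx4, which reduces lipid peroxides (0.43, adjusted p = 0.00116). Nuclear receptors and coregulators had 2 of 39 higher and 6 lower, and cell cycle genes 5 of 31 higher and 2 lower.

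Several of the largest changes lay outside the classical lists. Of the 15 largest named rises, 5 were of genes not well above background in any vehicle mouse and in all treated mice. These were Smcp, a sperm mitochondrial protein (at least 39.5-fold higher, adjusted p = 1.26e-09), Adra2a, an adrenergic receptor (at least 17.8-fold, adjusted p = 2.43e-09), Ctse, the protease cathepsin E (at least 13.5-fold, adjusted p = 9.43e-18), Fam183b (at least 12.2-fold, adjusted p = 2.18e-11) and Cyp2a22 (at least 6.99-fold, adjusted p = 3.24e-06). Adra2a was the least even, with treated mice at −2.08, −1.12, 0.45, −0.04 and 1.86. Ctse was tight, at −0.48, −0.57, −1.11, −0.37 and −0.38. In all, 14 genes passed from background in every vehicle mouse to above it in every treated mouse and were called, or 0.0888% of genes tested, and 6 went the other way, or 0.0381%.

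Rad51b, a recombination gene and a member of the cell cycle list, went from −2.73, −2.36, −3.41 and −1.06 to 3.41, 3.53, 3.84, 4.07 and 3.76 (69.0-fold, adjusted p = 5.47e-10) by its 1 detected probe. Krt23, a keratin listed among bile duct markers, went from 1.43, 1.90, 2.32 and 1.33 to 6.25, 6.01, 5.69, 5.91 and 5.77 (18.1-fold, adjusted p = 6.65e-11). Gal3st1, a sulfotransferase of glycolipids, went from −2.90, −1.67, −3.24 and −3.05 to 1.55, 1.16, 2.23, 0.79 and 1.04 (16.8-fold, adjusted p = 5.4e-08), and Arhgap20os, a noncoding RNA well above background in 3 of 4 vehicle mice, rose by 4.41 (adjusted p = 2.19e-08). The rise of Gdpd3, a lysophospholipase D that was well above background in 2 of 4 vehicle mice and all 5 treated mice, was uneven: treated mouse 5, at −3.44, stayed among the vehicle mice at −4.56 to −3.19, while the other 4 treated mice lay between 0.08 and 2.11 (difference 4.14 ± 0.85, adjusted p = 0.000761).

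Among the 15 largest named falls 4 were of serpins on chromosome 12: Serpina12, Serpina4-ps1, Serpina5 and Serpina9. Serpina4-ps1, annotated as a pseudogene, fell from 6.84, 5.32, 6.91 and 6.95 to 3.42, 2.97, 3.90, 2.63 and 3.14 (9.78-fold lower, adjusted p = 0.00105), and serpin copies are near enough that signal between them was not told apart. Adgrf1, an adhesion G protein-coupled receptor, fell from 1.33, 0.69, 1.26 and 0.08 to −1.89, −1.79, −1.28, −3.06 and −1.42 (6.61-fold lower, adjusted p = 1.55e-06). Lrtm1 and the collagen Col27a1 fell 6.68-fold and 4.49-fold (adjusted p = 1.38e-05 and 2.64e-05), also without overlap. The others were Moxd1 and Hsd3b5, described above, Cabyr (−2.66, adjusted p = 0.0175, and 0.0832 without vehicle mouse 1), Agap2 (−2.28, adjusted p = 0.000182, well above background in 3 of 5 treated mice), and Ppp1r3c (−2.21, adjusted p = 0.00511) and Tff3 (−2.23, adjusted p = 0.0376, and 0.191 without vehicle mouse 2), both with overlapping groups. Wif1 and Angpt1 were not well above background in any treated mouse and were in 2 and 3 of 4 vehicle mice, at least 1.28-fold and 2.04-fold lower (adjusted p = 8.87e-06 and 0.00434).

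Markers of other cells were read beside these results. Of 15 hepatocyte markers 3 were called lower. In all, 14 had a difference below 0, with a median of −0.19 against 0.004 over all genes, and 6 were lower at an unadjusted p under 0.05. The list mean, relative to that of the vehicle group, lay between −0.23 and −0.02 in treated mice and between −0.15 and 0.10 in vehicle mice. Of 16 Kupffer cell and macrophage markers only Itgam was called (1.07, adjusted p = 7.04e-05), and its other 2 probes, at 0.02 and −0.09, were not. Yet 15 of the 16 markers had a difference above 0 (median 0.35), 3 of them at an unadjusted p under 0.05. The Kupffer list mean lay between −0.45 and 0.33 in vehicle mice, and at 0.34, −0.09, 0.92, 0.05 and 0.67 in treated mice. Lymphocyte and neutrophil markers had 1 of 12 called, Nkg7, at 0.67 (0.62 and not called by its second probe), with list means of −0.05, 0.12, 0.77, 0.00 and 0.75. Treated mice 3 and 5 were thus the highest for both immune lists, and treated mouse 3 was also the only treated mouse above the vehicle mean for acute phase genes, at 0.30 against −0.51 to −0.25. Of 13 stellate cell markers limma called 0 (1 at an unadjusted p under 0.05), and of 13 endothelial markers 1 was. Of 9 bile duct markers only Krt23 was called, while Krt19, Krt7 and Sox9 differed by −0.57, −0.54 and 0.16. Of 7 red blood cell markers 1 was lower, Alas2, the first enzyme of heme synthesis there (−0.43, adjusted p = 0.035, a call lost in 6 of the 9 fits without a mouse), with list means from −0.38 to 0.39 with vehicle and from −0.11 to 0.59 with the drug. Of 4 pancreatic acinar markers 1 was called lower, Cela2a, an elastase (adjusted p = 0.0355, lost in 4 of the 9 fits), which was well above background in 3 of 4 vehicle mice and 0 of 5 treated mice, at least 1.36-fold lower.

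Of 5 adipocyte markers tested 3 were called higher, Fabp4, Adrb3 (with overlapping groups) and Cfd (adjusted p = 0.0215, and 0.0783 without vehicle mouse 4), and the list mean lay between −0.26 and 0.29 with vehicle and between 0.94 and 1.44 with the drug. The defining adipocyte genes were at or near background: Adipoq was well above it in 2 of 4 vehicle and 0 of 5 treated mice, Lep in none, and Plin1 in 2 of 4 and 4 of 5. Of 12 genes typical of muscle or brown fat, 5 did not pass the filter on detection and were not tested. Of the 7 tested, 5 were called higher (Cpt1b, Ucp3, Cox7a1, Fabp3 and Cidea). Means over those 7 ran from −0.26 to 0.21 with vehicle and were 0.83, 0.88, 1.91, 1.25 and 0.23 with the drug. The part of immune cells or fat in the values above was not tested.

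**Figure D5:**
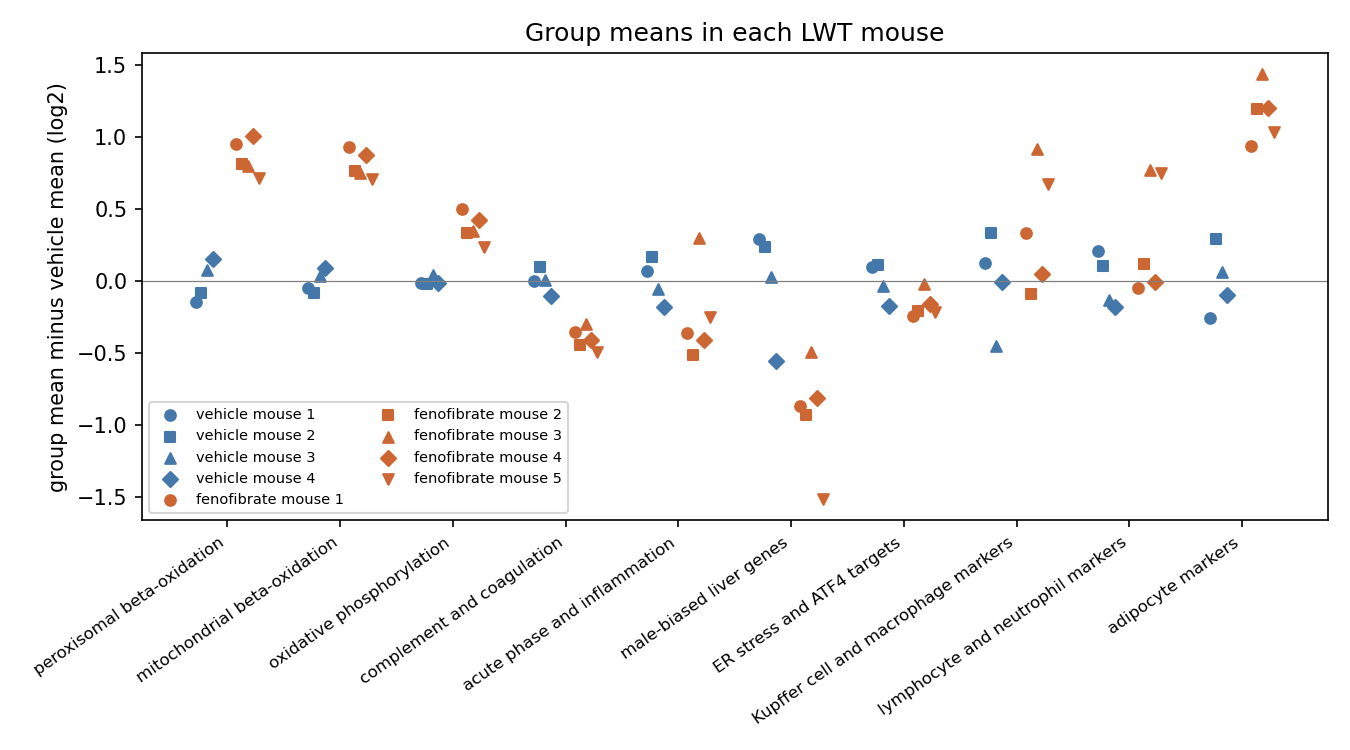
Mean over the members of 10 gene groups in each LWT mouse, minus the vehicle mean (log2 units), with a marker shape per mouse, vehicle in blue and fenofibrate in orange. The oxidation groups and the complement group separate the treatments in every mouse, while acute phase, macrophage and lymphocyte means overlap, with treated mice 3 and 5 highest for both immune groups.

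The same contrast was set against the other lines only to see where LWT differed. Against WT, whose arrays are separate from those of LWT, limma called 0 genes with a different response, while 676 had an unadjusted p under 0.05 and other settings called between 0 and 3. Against LKO, where the drug itself called 0 genes (917 at an unadjusted p under 0.05), the response differed for 1065 genes, 596 higher in LWT (3.78%) and 469 lower (2.97%). Among the 12 classical targets, Cd36 responded by 3.87 in LWT and −0.07 in LKO, a difference of 3.93 ± 0.25 (adjusted p = 7.1e-12), and Pdk4, Ehhadh, Vnn1 and Plin2 also passed. For Cyp4a10 and Cyp4a14 the estimated response was larger in LKO than in LWT, and the difference was not called (LWT minus LKO −0.80 ± 0.89 and −1.69 ± 1.37). The 0 calls in LKO therefore do not mean that no gene changed there. Of 36 complement and coagulation genes 7 had a response that differed between LWT and LKO, against 1065 of all 15766 genes. The counts were 7 of 22 for male-biased genes, 2 of 37 for acute phase genes and 2 of 29 for endoplasmic reticulum stress and ATF4 targets. Median changes in LWT and LKO were −0.32 and −0.11 for complement and coagulation genes, and −0.54 and −0.09 for male-biased genes. They were −0.37 and −0.27 for acute phase genes, and −0.22 and 0.04 for endoplasmic reticulum stress and ATF4 targets. Among complement and coagulation genes, C8a, C6 and F11 had a response 0.69, 0.85 and 0.70 lower in LWT than in LKO (adjusted p = 0.02, 0.027 and 0.043). C9 differed by −1.11 in LWT and −0.53 in LKO, and the difference between lines was not called (−0.59 ± 0.23, adjusted p = 0.13).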

How the data were processed

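Liver RNA was hybridised as Cy3-labelled cRNA to 34 1-colour Agilent mouse arrays, 9 of them of LWT liver, and each array is 1 mouse. Per the file headers, the deposited intensity values are scanner signals made with Agilent Feature Extraction 10.10.1.1, background-subtracted and not normalized between arrays, with probe positions on mm9. The authors also deposited a table of log2 values, in which all arrays share 1 distribution, as after quantile normalization. No source used here gives its steps, and the submitters' processing notes name limma without its settings.

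Spots of a probe were averaged after spots marked as outliers were left out. The log2 processed signal minus the array's 75th percentile was used. Probes were kept where all arrays of 1 or more groups had them well above background, and a gene took its brightest kept probe by its mean over the 34 arrays. This gave 15766 genes. limma 3.58.1 in R 4.3.3 fitted 8 group means over 34 arrays with no covariate, and p-values were adjusted by Benjamini-Hochberg over all genes tested. The script was tested on simulated data. Number of mice limits the precision. Named are 12 classical targets, the 15 largest rises and falls, and members of 39 gene lists. Members and lists were chosen with earlier results of these data known. Same-numbered mice are not tied to each other by the labels, and the correlation of their deviations was 0.216, −0.070, −0.272 and 0.192, so they were not paired. Alternatives were the background correction, normalization, filter, probe rule, variance model, slide, replicate block, arrays in the fit and leaving out each LWT mouse. Some list members are counted with their groups, and their own values are not reported here. KO arrays entered the shared spread only.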

Additional observations from a re-analysis of the deposited data

Results flagged for a closer look

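Over 164 named genes and 2 groups of mice, 24 of 328 sets of values held 1 mouse that stood apart from the rest, and chance alone marks about 1 in 20 sets this way. In the vehicle group the mouse that stood apart was mouse 1 for Pnpla2 (level 5.18, lowest) and Ppp1r3c (1.06, lowest), mouse 2 for Serpina4-ps1 (5.32, lowest), and mouse 4 for Adra2a (−5.47, highest), Moxd1 (−3.37, lowest) and Pdia6 (6.43, lowest). In the treated group it was mouse 1 for Acacb (5.53, lowest), Coasy (7.27, highest) and Suclg1 (7.19, highest), and mouse 3 for Ctse (−1.11, lowest), Fabp3 (−0.0499, highest) and Fabp4 (6.02, highest). Treated mouse 4 stood apart for Acsl1 (9.49), Alb (11.11) and Cyp4a32 (8.46), each time as the highest. Treated mouse 5 stood apart for Asns (4.57, highest), Il1rn (0.13, highest), Acad10 (4.65, lowest), Cat (5.84, lowest), Cyp4a12a (6.98, lowest), Hsd3b5 (0.24, lowest), Mogat1 (1.01, lowest), Phyh (8.45, lowest) and Prodh (5.89, lowest).

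Of the 12 classical targets, the response to the drug was larger in LWT than in LKO by the test of the difference itself for Cd36 (3.93 on the log2 scale), Pdk4 (3.38), Ehhadh (2.61), Vnn1 (2.21) and Plin2 (1.43). All 5 treated LWT mice lay above all 4 vehicle LWT mice for each of these 5 genes.

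Probes without a gene name were outside the comparison. Of 9870 that were detected, 966 were called between treated and vehicle LWT liver, or 9.79%, against 15.5% of 21188 named probes. Of the 966, 391 were higher and 575 lower.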

How the results depend on the processing

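The count of 2826 called genes lay between 2317 (no filter on dim probes) and 2969 (slide as a random block) under the alternatives, and between 2193 and 2624 when 1 LWT mouse was left out. Asking for a change of at least 2-fold as well left 538 genes. That count was 323 with normexp background correction and 351 in the authors' value table, and lay between 496 and 529 with a mouse left out. Among genes well above background on all 9 LWT arrays, a filter chosen after seeing the data, 422 changed at least 2-fold, 71 at least 4-fold (against 115) and 21 at least 8-fold (against 41), fewer genes being tested. The count of genes whose response differed from WT was 0, and was 2 with normexp, 1 with probes above background on all arrays, 1 with a variance trend, 3 with slide as a fixed block, 1 with slide as a random block, 1 with the replicate block and 0 to 2 with a mouse left out. The count against LKO lay between 798 and 1422, and between 845 and 1088 with a mouse left out. The causes were not tested. The replicate numbers do not pair the mice; with the replicate block 2412 genes were called, 508 of them at least 2-fold changed, and 811 differed from LKO.

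Counts of gene groups that held 3 or more calls, as reported or under the alternative, moved by more than 1.5 times as follows. Counts of 1 or 2 also moved, by 1 or 2 genes: with slide as a fixed block 0 female-biased genes were lower, with no filter 1 acute phase gene was higher, with the replicate block 1 omega-oxidation gene was lower, and with normexp 2 fatty acid synthesis genes were. In the fit of the 9 LWT arrays alone, higher counts were 10 for omega-oxidation, 15 for oxidative phosphorylation, 6 for cholesterol synthesis, 7 for antioxidant genes, 3 for hepatokines, 1 for adipocyte markers and 3 for muscle genes, and lower counts were 1 for lipoproteins, 4 for amino acid breakdown and 3 for xenobiotic metabolism. With slide as a fixed block, higher counts were 5 for cholesterol synthesis, 5 for xenobiotic metabolism and 7 for antioxidant genes, and lower counts 7 for acute phase and 4 for cell cycle genes. With slide as a random block 3 cholesterol genes were higher. Probes above background on all arrays gave 2 higher glucose genes of 28 and 2 higher female-biased genes of 12, the authors' value table gave 3 female-biased genes of 16, and no filter gave 6 antioxidant genes. With the replicate block, lower counts were 4 for xenobiotic metabolism, 3 for nuclear receptors and 1 for hepatocyte markers. Leaving out 1 mouse gave as few as 3 higher bile acid genes (vehicle mouse 3), 2 amino acid genes (vehicle mouse 4), 4 xenobiotic genes (vehicle mouse 2), 6 antioxidant genes (vehicle mouse 4 and treated mice 1 and 4), 3 cell cycle genes (vehicle mice 2 and 4, against 8 without vehicle mouse 1) and 3 muscle genes (treated mouse 3). It gave as few as 5 lower amino acid genes (vehicle mouse 3 and treated mouse 3), 4 lower xenobiotic genes (vehicle mouse 3) and 3 lower nuclear receptors (vehicle mice 1 and 4). Without treated mouse 1, 15 oxidative phosphorylation genes and 3 lymphocyte markers were higher.

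No called gene named here changed sign. Of 52 second probes of these genes 3 had the opposite sign, and none of those was called with its partner. For 38 of the 52 the partner was called over named probes. Of these 38, 29 were called in the same direction and 9 were not called. A further 4 second probes were called where the partner was not. Among genes not called, values near 0 changed sign. C3 was 0.113 with quantile normalization, 0.0872 in the authors' value table, 0.0128 with the mean of all probes, 0.124 and 0.0579 with slide as a fixed and a random block, and 0.0081 with the replicate block. Hp was 0.0532, 0.0672, 0.121, 0.0444 and 0.00381 under the same settings other than the mean of probes. Ppara was 0.00467 with the mean of probes, 0.0553 and 0.0187 with slide as a fixed and a random block, and 0.00455 with the replicate block. Acox3 was 0.000246 and Phyh −0.00601 with slide as a fixed block. With 1 mouse left out, values lay between −0.06997 and 0.00697 for Angptl4, −0.0844 and 0.0605 for C3, −0.0633 and 0.0976 for Fabp1, −0.231 and 0.167 for G6pc, −0.0929 and 0.039 for Hp, −0.0357 and 0.0733 for Phyh, −0.122 and 0.0598 for Ppara and −0.203 and 0.422 for Sox9. Signal near background limits what can be said of dim genes, 4 or 5 mice a group limit small changes, and levels of near-identical copies may be mixed.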

Other observations

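Beyond the genes named above, 7 more passed from background in all 4 vehicle mice to above it in all 5 treated mice. They include Chil1, a chitinase-like protein (at least 7.79-fold higher), Pnliprp1, a pancreatic lipase-related protein (at least 4.67-fold), Foxc2, a transcription factor (at least 2.64-fold), Palb2, a partner of BRCA2 (at least 2.61-fold), and Slc47a2, an organic cation exporter (at least 2.10-fold). In the other direction, Espn, an actin-bundling protein, was at least 2.39-fold lower, Ap4e1, a subunit of a trafficking adaptor, at least 2.33-fold lower, and Chst4, a sulfotransferase, at least 1.88-fold lower. These genes were named after their values were seen.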
